A study of Mus musculus with 23 samples.

Results

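The spectrin, ankyrin and adducin membrane skeleton was described through 9 genes, chosen by name: the spectrins Sptan1, Sptbn1 and Sptbn4, the ankyrins Ank1, Ank2 and Ank3, and the adducins Add1, Add2 and Add3. Each was matched by its Ensembl ID among the 55487 gene IDs of the count files, and all 9 were found. The cultures were hippocampal cells of C57Bl/6 mouse pups of postnatal day 1, seeded on the soma side of microfluidic chambers so that axons could grow through channels into a separate side. All cultures, controls included, received magnetic nanoparticles (MNPs) at 5 µg per ml of medium. Treated cultures were kept in a gradient of 50 T/m, which acts on the particles, from day in vitro 1 to day in vitro 6, and the protocol calls this stretched growth. Control cultures had a null gradient. RNA was collected from the axonal side, labelled a pure axonal preparation, in 5 control and 6 treated samples. RNA of the soma side, labelled total cell culture, came from 6 control and 6 treated samples, so this group holds every cell of the culture and not cell bodies alone. The labels do not say whether samples of a group came from separate animals or chambers, so p-values measure the spread between these samples only, which may be technical.

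Spectrins are long, flexible rods. An alpha and a beta subunit pair side by side, the pairs join into tetramers, and the tetramers bind short actin filaments into a mesh beneath the plasma membrane. In axons this mesh forms a periodic lattice in which adducin caps the actin rings and spectrin spans the space between them, and ankyrins tie the mesh to ion channels and adhesion molecules. The lattice is known for giving axons elasticity and mechanical resistance, and the axon initial segment is built on its ankyrin-G and beta-IV spectrin version.

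In the mouse genome build GRCm38 (mm10) with the GENCODE M21 annotation, Sptan1 lies on the forward strand of chromosome 2 (29965560 to 30031451). Sptbn1 lies on the reverse strand of chromosome 11 (30099395 to 30268175) and Sptbn4 on the reverse strand of chromosome 7 (27356383 to 27447686). Ank1 lies on chromosome 8 (22974844 to 23150497, forward), Ank2 on chromosome 3 (126921612 to 127499350, reverse) and Ank3 on chromosome 10 (69398773 to 70027438, forward). Add1 lies on chromosome 5 (34573664 to 34632308), Add2 on chromosome 6 (86028681 to 86124409) and Add3 on chromosome 19 (53140443 to 53247399), all on the forward strand. Their longest annotated transcripts were long, from 4426 bases for Add3 to 14305 bases for Ank2, against a median of 3304 bases over the genes tested in somata. Counts were per gene, so isoforms such as the large neuronal forms of Ank2 and Ank3 could not be told apart. Whether counting used the strand is not given in the sources used here. Up to 6.37% of the exonic bases of a member (Ank1) overlapped another gene, and reads there are uncertain.

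The bases upstream of a start are shown for Sptan1 and Sptbn1, whose levels ran together across the soma libraries, and for Add2, which went the other way. RefSeq start sites on the same build gave entries for 7 of the 9 members, 16 in all. Capitals mark the GC box GGGCGG or its reverse complement CCGCCC, the only motif searched, on both strands and with no regard to other motifs. Each run holds the 250 bases before the start, written 5′ to 3′ in the direction of the gene.
Sptan1 (chr2:29965310-29965559, forward strand, upstream of the gene, no annotated exon in the window): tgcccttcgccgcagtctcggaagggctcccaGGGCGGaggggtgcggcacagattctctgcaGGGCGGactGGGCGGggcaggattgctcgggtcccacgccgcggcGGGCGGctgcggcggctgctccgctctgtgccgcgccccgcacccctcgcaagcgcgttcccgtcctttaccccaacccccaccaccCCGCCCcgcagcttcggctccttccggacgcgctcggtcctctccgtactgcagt
Sptbn1 (chr11:30198258-30198507, reverse strand, start of a shorter transcript, within the gene's span but outside every annotated exon): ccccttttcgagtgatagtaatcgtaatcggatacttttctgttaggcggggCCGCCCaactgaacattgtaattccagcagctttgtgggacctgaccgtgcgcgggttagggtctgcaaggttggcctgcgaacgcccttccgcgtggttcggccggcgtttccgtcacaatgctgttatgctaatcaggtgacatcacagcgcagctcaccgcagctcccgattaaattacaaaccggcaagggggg
Add2 (chr6:86028431-86028680, forward strand, upstream of the gene, no annotated exon in the window): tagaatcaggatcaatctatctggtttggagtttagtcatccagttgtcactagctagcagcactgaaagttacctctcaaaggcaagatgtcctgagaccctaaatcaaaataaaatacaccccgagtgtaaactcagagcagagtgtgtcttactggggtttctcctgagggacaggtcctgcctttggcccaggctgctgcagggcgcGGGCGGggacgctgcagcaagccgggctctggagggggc
The box occurred 5 times in the Sptan1 window and 1 time each in the Sptbn1 and Add2 windows. Of 32851 RefSeq windows of this length, 32.7% held at least 1 such match. The other Sptbn1 entry (chr11:30219773-30220022) held 0. The 3 windows are 73.6%, 55.6% and 53.2% G or C, against a median of 52.4% over all windows. These are matches of letters and not measured sites.

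Libraries held 16369153 to 43048953 counts on genes. At least 1 count was found for 22452 to 24575 genes in soma libraries but for only 4263 to 10242 in axonal libraries. Marker genes of neurons (8 genes such as Tubb3, Map2 and Syt1) were all present in every soma library, with a summed level of 5417 to 6827 counts per 1000000 counts of the library (CPM). Their sum was lower in every axonal library, at 1283 to 4385 CPM in control and 2314 to 3958 CPM in treated axons. Control axonal libraries held a count of 4 to 8 of these 8 genes and treated ones of 4 to 7. Astrocyte markers (8 genes such as Gfap, Aqp4 and Aldh1l1) summed to 5120 to 14075 CPM in somata. They summed to 4651 to 25629 CPM in control axonal and 4790 to 19604 CPM in treated axonal libraries, mostly as Gfap and Aldoc. Single axonal libraries held a count of 4 to 8 of the 8. Gfap and Aldoc had a count in 5 of 5 control and 6 of 6 treated libraries, Slc1a3 and Slc1a2 in 5 of 5 and 5 of 6. Aldh1l1 had one in 4 of 5 control and 3 of 6 treated libraries, and Gja1 in 3 of 5 and 5 of 6. Aqp4 had one in 4 of 5 control and 1 of 6 treated libraries, and S100b in 1 of 5 and 3 of 6. The part of astrocyte RNA in the axonal values was not tested. Erythroid markers, which would bring in red-cell spectrin and ankyrin, summed to 1.22 to 2.59 CPM in somata. The soma libraries also fell apart by the Y-linked gene Eif2s3y. It stood at 24.7 to 28.7 CPM in control replicates 1, 2 and 3 and treated replicates 1, 2 and 8, and at 5.39 to 13.2 CPM in the other 6 libraries. The labels name no batch for this split, and results are given within it below.

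In somata 7 of the 9 members were abundant, each above 100 CPM in every library, while Sptbn4 and Ank1 were scarce. Per kilobase of the longest transcript, alpha-II spectrin Sptan1, the partner of all the non-red-cell beta spectrins, was highest in control somata at 68.6 ± 17.8 CPM per kb (SD, n = 6). Next came Add1, the adducin subunit found in most tissues, at 45.3 ± 4.51, and Ank2, ankyrin-B, which works along the axon shaft, at 42.1 ± 12.2 CPM per kb (SD, n = 6 each). Beta-II spectrin Sptbn1, the main beta subunit of the axon shaft, stood at 37.8 ± 7.06 and Add3 at 36.4 ± 10.7 CPM per kb (SD, n = 6 each). From Add1 to Add3 these neighbours lay within each other's spread. Add2, the adducin enriched in neurons and red cells, followed at 28.3 ± 1.78 and Ank3, ankyrin-G, the organizer of the axon initial segment, at 19.6 ± 4.69 CPM per kb (SD, n = 6 each). Sptbn4, beta-IV spectrin of the initial segment and nodes of Ranvier, reached only 0.374 ± 0.0922 and Ank1, the red-cell ankyrin, 0.0491 ± 0.0299 CPM per kb (SD, n = 6 each), far below the rest.

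Treated against control somata addresses how the whole culture's RNA differed after days under the field gradient. The spectrin Sptbn1 was higher and the adducin Add2 lower in treated somata; the other 6 members tested did not pass, and Ank1 was too scarce to be tested. With edgeR's quasi-likelihood test and a Benjamini-Hochberg adjusted p under 0.05, that is 1 member higher and 1 lower of 8, against a background of 25.1% of the 15632 genes tested (11.2% higher and 13.9% lower), so the members' share was close to the background. The median log2 fold change was 0.17 over the 8 members and -0.03 over all genes tested. No member had groups that did not overlap, against 4.11% of all genes.

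**Figure D1:**
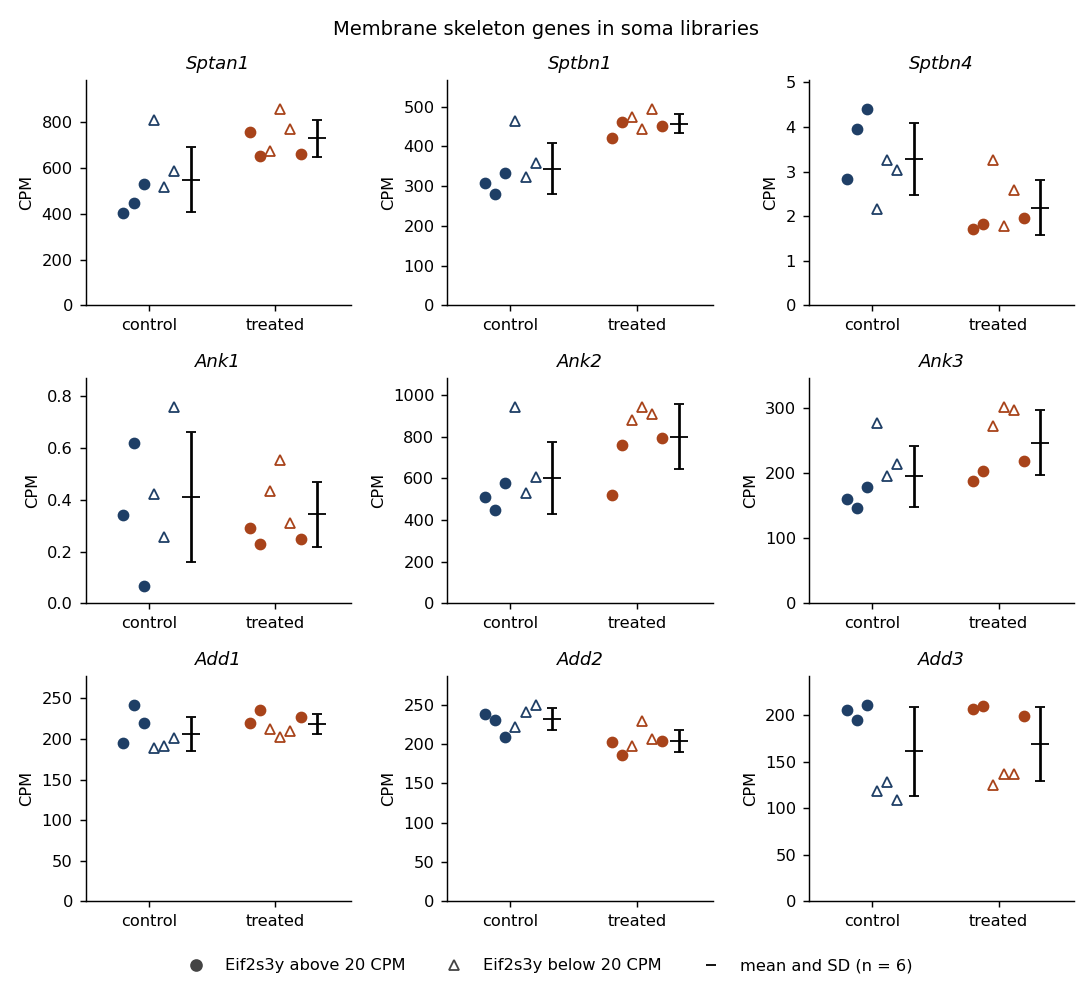
CPM of each member in the 6 control and 6 treated soma libraries; each symbol is 1 library, its shape gives the Eif2s3y level, and the bar gives the mean and SD. Sptan1, Sptbn1, Ank2 and Ank3 each show 1 high control library, replicate 4, and Add3 separates by symbol shape instead of by treatment.

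Sptbn1 ranged in control somata from 279 to 464 CPM with a median of 327, and in treated somata from 421 to 493 CPM with a median of 456. A single control library, replicate 4 at 464 CPM, reached into the treated range; the other 5 controls, at most 358 CPM, lay below all 6 treated libraries. The log2 fold change was 0.37 (SE 0.10, adjusted p = 0.0173, edgeR). Its rise passed the test when any 1 library was left out, with an adjusted p of at most 0.0410.

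Sptan1 ranged from 406 to 812 CPM in control somata (median 523) and from 653 to 857 CPM in treated somata (median 717). Again control replicate 4, at 812 CPM, was the only control above 586 CPM, and the groups overlapped through it. The log2 fold change had the same size as for Sptbn1, 0.37, but a larger error (SE 0.14, 95% interval 0.10 to 0.64 as the estimate ± 1.96 SE) and did not pass (adjusted p = 0.0581, edgeR). Sptbn4 ranged from 2.15 to 4.40 CPM in control somata (median 3.14) and from 1.71 to 3.27 CPM in treated somata (median 1.89). This scarce subunit rests on 41 to 134 counts a library; its log2 fold change of -0.62 (SE 0.24) did not pass (adjusted p = 0.0668, edgeR).

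Ank2 ranged from 449 to 940 CPM in control somata (median 553) and from 520 to 942 CPM in treated somata (median 837). Control replicate 4 was at the top of its group, with the other controls at 607 CPM or less, and treated replicate 1 was at the bottom of its own. The log2 fold change was 0.37 (SE 0.17, 95% interval 0.04 to 0.71, adjusted p = 0.119, edgeR). Ank3 ranged from 146 to 277 CPM in control somata (median 187) and from 188 to 301 CPM in treated somata (median 245), with a log2 fold change of 0.30 (SE 0.16, adjusted p = 0.168, edgeR). Its highest control was replicate 4 too, and the groups overlapped. Ank1 gave 2 to 18 counts a library, 0.411 ± 0.250 CPM in control and 0.345 ± 0.125 CPM in treated somata (SD, n = 6 each), which is too low to compare at this depth.

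Add2 ranged from 209 to 250 CPM in control somata (median 235) and from 186 to 229 CPM in treated somata (median 203). Most treated libraries lay below the controls, but treated replicate 5 at 229 CPM and control replicates 3 and 4, at 209 and 222 CPM, made the groups overlap. The log2 fold change was -0.23 (SE 0.07, adjusted p = 0.0376, edgeR). Its fall did not pass when any 1 of 9 of the 12 libraries was left out, with an adjusted p of up to 0.105. Add1 (189 to 242 CPM in control, 202 to 236 CPM in treated somata) had a log2 fold change of 0.04, with a 95% interval of -0.11 to 0.19. Add3 (109 to 211 and 126 to 210 CPM) had one of 0.03, with a wider interval of -0.35 to 0.41. Neither passed (adjusted p = 0.743 and 0.932, edgeR), and the groups of both overlapped almost fully.

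Control soma replicate 4 decided several of these values. Without it, 6 members passed: Sptan1 (log2 fold change 0.50, adjusted p = 0.00114, edgeR), Sptbn1, Ank2 (0.53, adjusted p = 0.00622) and Ank3 (0.41, adjusted p = 0.0326) were higher, and Sptbn4 (-0.73, adjusted p = 0.0219) and Add2 lower. The background then rose to 38.3% of all genes tested. Within the 6 libraries with high Eif2s3y, 4 of 8 members passed, against a background of 29.2% of the genes tested there: Sptan1 (0.59), Sptbn1 (0.53) and Ank3 (0.33) were higher and Sptbn4 (-1.03) lower. There the 3 controls held 406 to 529 CPM of Sptan1 and the 3 treated libraries 653 to 759 CPM. The values of Sptan1, Sptbn1, Sptbn4, Ank3 and Add2 did not overlap there, while those of Ank1, Ank2, Add1 and Add3 did. The share of all genes without overlap in these 6 libraries was not taken, so nothing is read from this. Within the 6 libraries with low Eif2s3y, which hold control replicate 4, no member passed, and 0% of the genes tested passed with edgeR, although 2739 genes had an unadjusted p under 0.05.

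**Figure D2:**
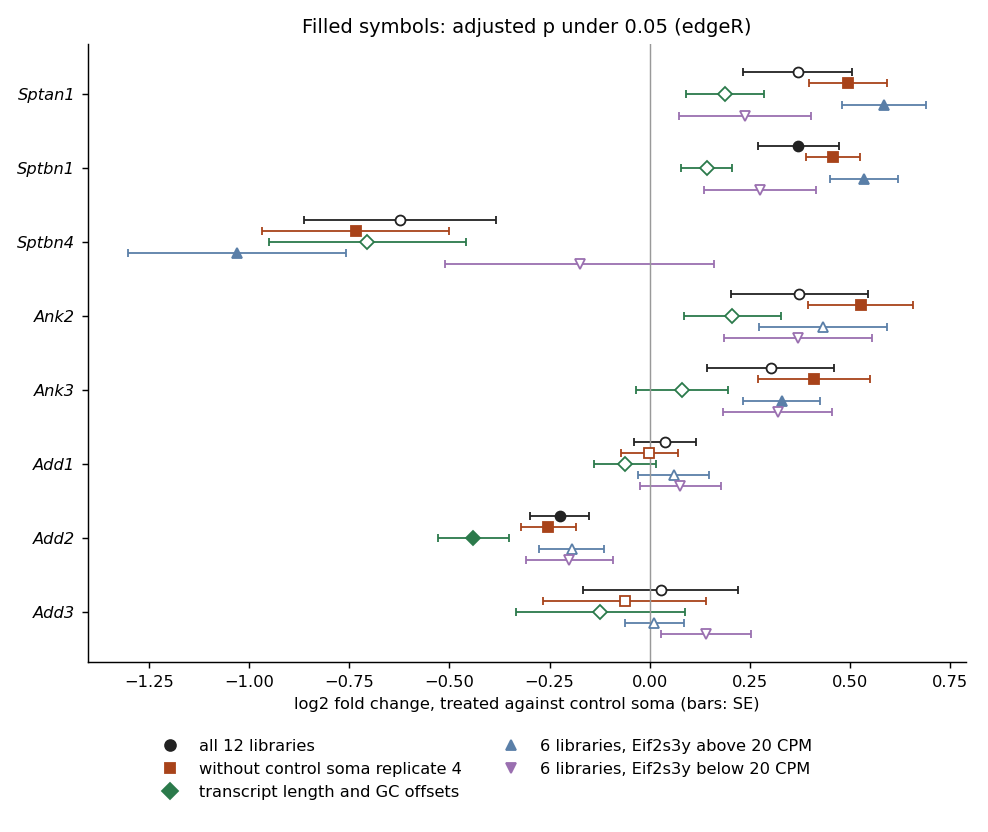
Log2 fold change of the 8 tested members in treated against control somata, with the SE as bars, for all 12 libraries, without control soma replicate 4, with offsets for transcript length and GC content, and within each Eif2s3y level; filled symbols passed the test. The spectrins Sptan1 and Sptbn1 and the ankyrins lie right of 0 in all 5 settings and Sptbn4 and Add2 left of 0, while Add1 and Add3 change side.

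Long transcripts as a class were higher in treated somata, and most members are long. Across 15619 genes the log2 fold change had a Spearman correlation of 0.457 with transcript length, given as a description across genes, which are not independent replicates. Among the 4639 tested genes at least as long as the shortest member, the median log2 fold change was 0.23, with 23.02% called higher and 4.40% lower. When each library's trend with length and GC content was taken out as an offset, that median became 0.04 and the background fell to 16.5%. Sptbn1 then had a log2 fold change of 0.14 (adjusted p = 0.135, edgeR) and no longer passed, and Add2 passed with -0.44 (adjusted p = 0.00879). Add2 is one of the long transcripts: of the 889 tested genes of at least 8000 bases, 3.71% were called lower and 18.9% higher in the fit without offsets.

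The spectrins outside the 9 genes and the proteins that work with them were counted from a list of 53 genes chosen by role, of which 52 were tested in somata. Of these, 14 were higher and 6 lower in treated somata, with a median log2 fold change of 0.11. The background was 11.2% higher and 13.9% lower over all genes, and 23.02% and 4.40% among the genes at least as long as the shortest member; the partners were not matched to other genes by length. Among the other spectrins, of which 2 were higher and 0 lower of 3 tested, Sptb, beta-I spectrin, known from red cells and also made in neurons, went from 8.71 ± 1.83 to 15.2 ± 2.59 CPM (SD, n = 6 each) with no overlap. Its log2 fold change was 0.77 (SE 0.16, adjusted p = 0.00656, edgeR).

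Values of partners in somata come from the fit of all soma libraries without offsets. Their dependence on transcript length, GC content, control replicate 4 and the Eif2s3y split is not given here. Among 16 ankyrin-bound membrane partners, 6 were higher and 1 lower. The higher ones included the L1-family adhesion molecules L1cam (0.49), Nrcam (0.51) and Chl1 (0.32), the sodium channel Scn2a (0.53) and the anion exchanger Slc4a3 (0.30), with log2 fold changes in brackets. Of the Epb41 family, which strengthens the spectrin-actin junction, 2 of 4 were higher (Epb41l1, 0.37, and Epb41l3, 0.28) and none lower. Of 11 proteins of the actin rings and junctions, the non-muscle myosins Myh9 (0.54) and Myh10 (0.36) were higher. Tmod2, a neuronal cap of the pointed actin end, was lower, from 462 ± 76.6 to 320 ± 15.8 CPM (SD, n = 6 each; log2 fold change -0.57, SE 0.11, adjusted p = 0.00458, edgeR). Among 5 initial segment and internodal proteins, the adhesion molecule Cntn2 was higher (0.55) and the microtubule organizer Trim46 lower (-0.21). Of 13 regulators and proteases, the casein kinase 2 catalytic subunit Csnk2a1 was higher (0.55), while 3 were lower, among them its regulatory subunit Csnk2b (-0.60) and the calpain Capn2 (-0.43).

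**Figure D3:**
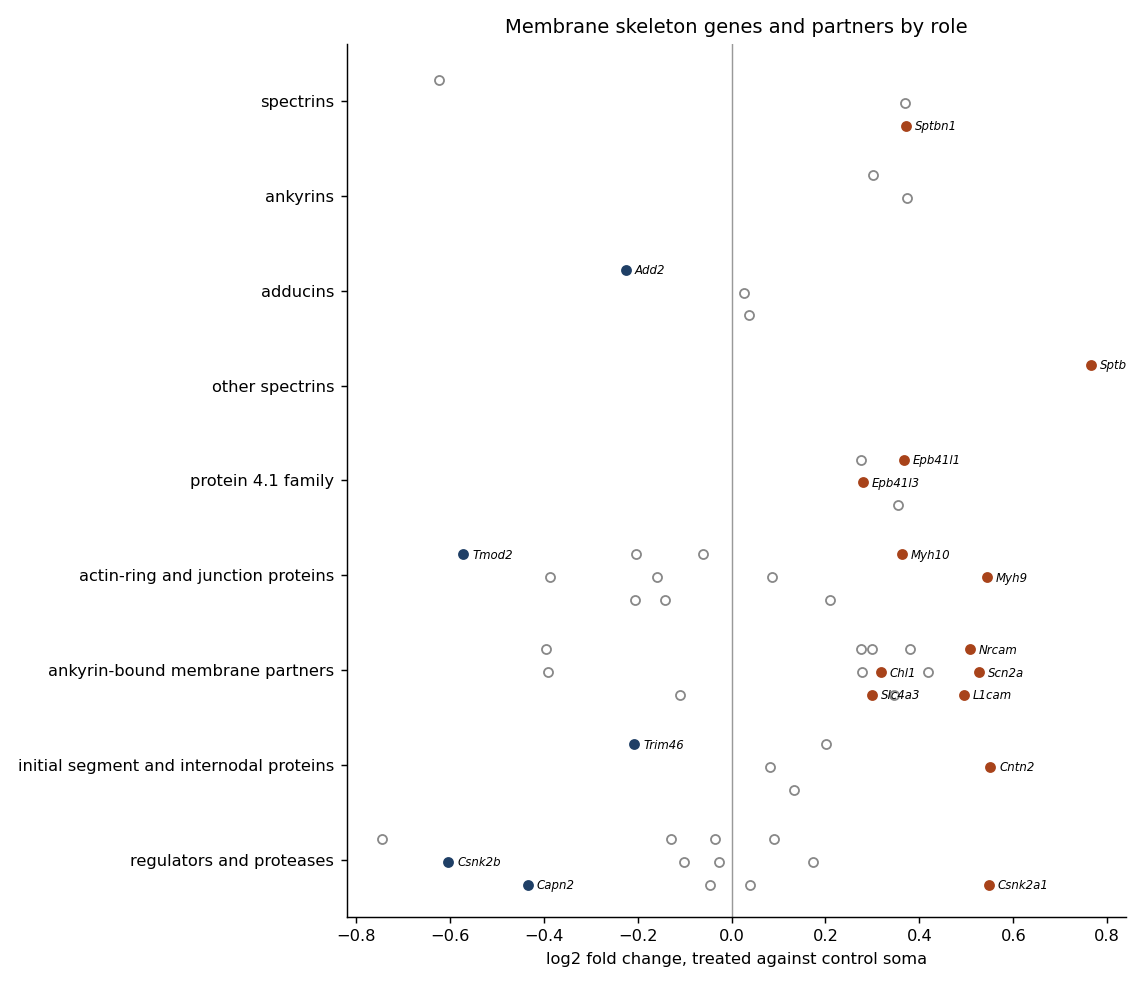
Log2 fold change in treated against control somata of the members and of the tested partners reported here, by role; filled and named symbols passed the test with edgeR. Sptb lies highest, at 0.77, and called genes lie on both sides of 0 among the actin-ring, initial segment and regulator roles.

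Alpha and beta spectrin transcripts stood near parity in somata. The ratio of Sptan1 to the summed beta spectrins, per length, was 1.01 ± 0.0918 in control and 0.953 ± 0.0965 in treated somata (SD, n = 6 each), a difference smaller than the spread. Sptbn1 made up 56.3 ± 2.91% of the beta spectrin level in control and 52.6 ± 1.91% in treated somata (SD, n = 6 each). The share gives a proportion only and was not tested.

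Add3, the gamma subunit made in most tissues, differed by the split of the soma libraries. It stood at 195 to 211 CPM in the 6 libraries with high Eif2s3y and at 109 to 137 CPM in the 6 with low, 1.63-fold higher in the former, with no overlap. Add3 was the only member of 9 whose values did not overlap across this split, against 5.05% of the genes tested. All 8 astrocyte markers separated in the same way: Gfap stood at 7556 to 10496 CPM against 3546 to 4436 CPM, and Aldh1l1 at 141 to 169 CPM against 76.5 to 103 CPM. Their sum was 10726 to 14075 CPM in the former and 5120 to 6310 CPM in the latter, and none was at 0. The summed neuronal markers overlapped, at 5804 to 6827 and 5417 to 5958 CPM. In bulk RNA, fewer cells of a type and less RNA per cell cannot be told apart, and the part of glial content in the Add3 level was not tested. The summed astrocyte markers did not separate control (5120 to 14075 CPM) from treated somata (5354 to 11400 CPM).

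**Figure D4:**
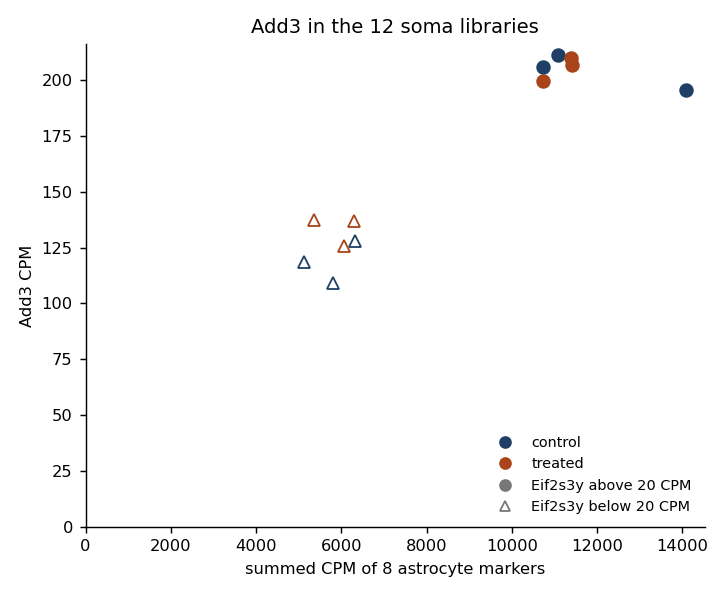
Add3 level against the summed level of 8 astrocyte markers in the 12 soma libraries, both in CPM; colour gives the treatment and shape the Eif2s3y level. The libraries form 2 clusters, with Add3 at 195 to 211 CPM and at 109 to 137 CPM, and both clusters hold control and treated libraries.

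Levels over the 12 soma libraries, which share these differences in treatment, split and depth, were correlated as log2(CPM + 1). CPM was scaled here by edgeR's TMM factors. Pearson correlations were 0.88 for Sptan1 with Sptbn1, 0.93 for Ank2 with Ank3 and 0.87 for Sptbn1 with Ank2. Add2 ran against Sptbn1 at -0.64, and Add3 against Ank3 at -0.75. Add1 and Add3 ran together at 0.63. Among 9533 genes of at least 10 CPM, the 5 most like Sptan1 over these libraries were Etv3 (0.99), Plxna2 (0.98), Kidins220 (0.98), Cltc (0.98) and Tenm2 (0.98). For Ank2 they were Dnal1 (0.97), Scai (0.97), Tnr (0.96), A830018L16Rik (0.96) and Apc (0.95). For Add1 they were Arl8a (0.91), B4galt4 (0.89), Pld2 (0.87), Gna13 (0.86) and Cpne3 (0.85).

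In axonal libraries the members were patchy: a gene well expressed in one library was often at 0 in another of the same group. Of the 7 members abundant in somata, 66 of 77 pairs of gene and axonal library (85.7%) had at least 1 count, against 76.4% for all 2367 genes of at least 100 CPM in somata. Sptan1 and Ank2 had a count in all 11 axonal libraries, Sptbn1 and Ank3 in 10, and each adducin in 8. A level of at least 100 CPM was reached by Sptan1 in 10 libraries, Sptbn1 in 9 and Ank2 in 6. Add1 and Add3 reached it in 5 each, Ank3 in 4 and Add2 in 1. In single axonal libraries 1 to 6 of these 7 members reached it, as did 37.9% to 73.0% of all 2367 such genes. Neither this share nor that of genes with a count was tested. Single axonal libraries held 4 to 7 of the 9 members, while every soma library held 9. Among the 7 members the coefficient of variation over axonal libraries was 59.2% to 126%, against 8.12% to 26.8% over soma libraries.

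**Figure D5:**
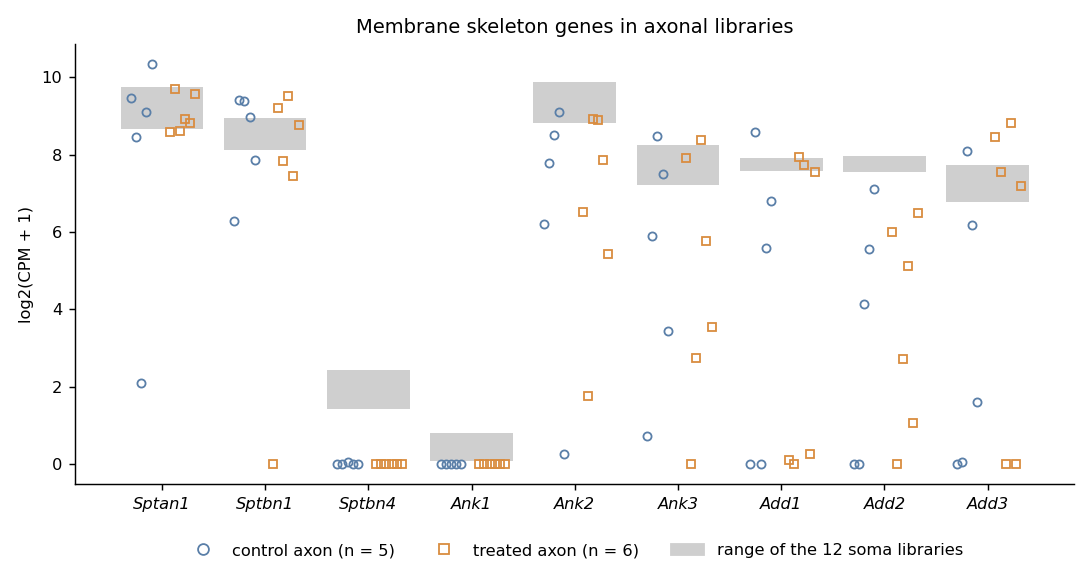
Level of each member in the 5 control and 6 treated axonal libraries as log2(CPM + 1), with the range of the 12 soma libraries as a grey box. Sptan1 lies mostly within or near the soma range, Sptbn1 scatters above and below it, Add2 lies below it in every axonal library, and Sptbn4 and Ank1 lie at or next to 0.

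Sptan1 stood at 703, 351, 3.27, 551 and 1295 CPM in control axon replicates 1, 2, 3, 5 and 7, and ranged from 381 to 832 CPM in treated axons (median 465). Replicate 3 was the only axonal library nearly without it, and the treated values lay inside the control range. Sptbn1 stood at 76.5, 673, 670, 505 and 230 CPM in the same control libraries and ranged from 0 to 736 CPM in treated axons (median 332). Only treated replicate 1 had no Sptbn1 count, and the groups overlapped. In treated replicate 1 the alpha subunit was at 381 CPM without this beta subunit, and in control replicate 3 the beta subunit was at 670 CPM almost without alpha. Accordingly the ratio of Sptan1 to the summed beta spectrins ranged from 0.00456 to 10.4 in control axons and from 0.746 to 2.91 in treated axons other than replicate 1, next to the narrow ratio near 1 in somata. Treated replicate 1 held 1 count over all beta spectrins, too few for a ratio.

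Ank2 stood at 72.6, 218, 362, 549 and 0.194 CPM in control axons and ranged from 2.38 to 481 CPM in treated axons (median 160). Ank3 stood at 0.668, 58.9, 354, 180.5 and 9.83 CPM in control axons and ranged from 0 to 331 CPM in treated axons (median 32.2). Both ankyrins ranged from near 0 to their highest levels in each group, and the groups overlapped. Add1 stood at 0, 383, 0, 47.2 and 111 CPM in control axons and ranged from 0 to 242 CPM in treated axons (median 93.7). Add2 stood at 0, 0, 16.6, 45.9 and 138 CPM in control axons and ranged from 0 to 89.0 CPM in treated axons (median 19.9). Add3 stood at 0, 0.0499, 273, 71.2 and 2.06 CPM in control axons and ranged from 0 to 449 CPM in treated axons (median 165). Different libraries lacked different adducins: among controls, replicate 2 had the most Add1 and next to no Add2 or Add3, and replicate 3 had the most Add3 and no Add1.

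Between treated and control axons no member passed, and the intervals were wide. Of the 4947 genes tested, 0% passed with edgeR; 46 had an unadjusted p under 0.05, while DESeq2 called 18 genes and limma voom 9, none of them a member. The log2 fold change was -0.08 for Sptan1 (95% interval -1.72 to 1.56), -0.26 for Sptbn1 (-2.74 to 2.23), -0.21 for Ank2 (-3.16 to 2.74) and -0.28 for Ank3 (-4.29 to 3.74). For the adducins it was 0.10 for Add1 (-4.88 to 5.09), -0.32 for Add2 (-5.03 to 4.39) and 1.36 for Add3 (-3.57 to 6.30), all with an adjusted p of 1.00 (edgeR). Differences of several-fold in either direction were thus not detectable with these libraries. Sptbn4 and Ank1 were not tested. Of the 53 partners 29 were tested in axons, and 0 passed.

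Axonal against soma libraries address which of these transcripts the axonal side holds. The scarce initial-segment spectrin Sptbn4 gave next to no counts in axonal libraries. The share of genes at a like soma level without axonal counts was not taken, so this is not read as particular to Sptbn4. In control cultures it gave 1 count over 5 axonal libraries and 487 counts over 6 soma libraries, a 432-fold lower CPM with a 95% counting interval of 77.2 to 17101. In treated cultures it gave 0 counts over 6 axonal libraries and 332 over 6 soma libraries. Its soma mean there was 15.7-fold above a floor of 3 counts per library. A ratio that rests on 1 count and a level set against a floor are different quantities, and the conditions are not compared through them. The filter asks for counts in 1 group only, so Sptbn4 entered the tests through its soma counts, and nothing is read from its calls. Ank1 had 0 counts in all 11 axonal libraries. Its soma mean was 3.23-fold above the same floor in control and 2.47-fold above it in treated cultures. Interval and floors speak for counting error alone, because reads of amplified cDNA repeat the same molecules. They do not cover the patchiness of axonal libraries, where Add1 stood at 383 CPM in control replicate 2 and at 0 in control replicate 1. No least fold difference between axon and soma is read from them.

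In control cultures none of the other 7 tested members passed, with edgeR's test, against 35.3% of the 14728 genes tested (34.4% lower and 0.856% higher). Their log2 fold changes, axon against soma, were -0.19 for Sptan1, 0.09 for Sptbn1, -1.49 for Ank2, -0.85 for Ank3, -1.29 for Add1, -2.73 for Add2 and -1.37 for Add3. The median over all genes tested was -1.40. Ank2 and Add2 lay below it and the other 5 above. Genes could enter this background through their soma counts alone. It was not matched by soma level to these 7 abundant members, so nothing is read from their share or place in it. Of these 7, Add2 was the member whose axonal and soma values did not overlap, against 41.6% of all genes. Of the partners, 2 were higher and 9 lower of 52 in control axons, and 8 of the 9 had a count in at most 2 of 5 axonal libraries, so they were tested through their soma counts. The higher ones were the tropomyosin Tpm4 (384 ± 146 CPM in axons, SD, n = 5, against 149 ± 31.5 CPM in somata, SD, n = 6) and the calmodulin gene Calm2 (log2 fold changes 1.11 and 0.37). The lowest were Cntn2, Slc4a3 and the actin cap Tmod1, at means of 183, 78.3 and 12.9 CPM in control somata. A count of them was held by 1 of 5, 1 of 5 and 0 of 5 axonal libraries. These calls follow from the soma counts, so nothing is read from them. In treated cultures 3 of 6 axonal libraries held Tmod1, at 42.7 ± 66.2 CPM against 10.2 ± 1.41 CPM in somata (SD, n = 6 each).

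In treated cultures 1 of the other 7 tested members was lower in axons, Sptan1, against 29.3% of the 14466 genes tested (28.4% lower and 0.843% higher). Sptan1 held 381 to 832 CPM in treated axons and 653 to 857 CPM in treated somata, and the groups overlapped. Its log2 fold change was -0.88 (SE 0.27, adjusted p = 0.0255, edgeR), while the median over all genes tested was -1.13. Scaling by total counts alone moved that median to -0.73 and Sptan1 to -0.41, which did not pass (adjusted p = 0.305). It did not pass without a filter (adjusted p = 0.149, edgeR) or with limma voom (0.0796) either. Under both scalings the value of Sptan1 lay above that of the median gene. The genes behind that median were not matched to Sptan1 by soma level either, so nothing is read from this. Ank2 (-2.34, adjusted p = 0.0771, edgeR) and Add2 (-3.11, adjusted p = 0.133) did not pass, though their values did not overlap between axon and soma, 2 of these 7 members against 35.9% of all genes. Without treated axon replicate 2, where Ank2 was at 2.38 CPM and Add2 at 0, both passed as well. Sptbn1 (-0.78), Ank3 (-1.76), Add1 (-1.44) and Add3 (-0.38) did not pass. Of the 52 partners tested, 8 were lower and 0 higher, against 28.4% lower and 0.843% higher over all genes tested. Of the 8, 4 had a count in at most 2 of 6 axonal libraries, so they were tested through their soma counts. The lowest were Epb41 (59.8 ± 7.78 CPM in treated somata, SD, n = 6, and 0 of 6 axonal libraries with a count), Sptb (1 of 6) and Cntn2 (2 of 6). Nothing is read from the calls of these 3.

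Markers of other sources were read beside these comparisons. Genes of cell bodies and nuclei (9 such as Malat1 and Meg3) summed to 1009 to 2825 CPM in control axons and 1790 to 2752 CPM in control somata. In treated cultures they summed to 543 to 2923 and 1250 to 1984 CPM. Single axonal libraries held a count of 2 to 8 of the 9, and the sums overlapped between axon and soma. For Malat1 the control cultures gave 1173 ± 698 CPM on the axonal side (SD, n = 5) against 1116 ± 311 CPM on the soma side (SD, n = 6). Control means were also close for Meg3 (579 against 561 CPM), Snhg11 (59.9 against 60.3) and Neat1 (8.24 against 8.08). Lower on the axonal side were Camk2a (95.2 against 367 CPM), Dlg4 (15.3 against 56.4), Shank1 (1.96 against 21.0), Shank3 (0.0465 against 4.71) and Miat (0.0233 against 20.0). Fibroblast and mural markers (7 genes) summed to 106 to 756 CPM in control and 0 to 1479 CPM in treated axons (medians 176 and 776), against 172 to 276 CPM in all somata. Microglia markers (8 genes) summed to 0 to 199 CPM in control and 0 to 736 CPM in treated axons, against 37.6 to 102 CPM in somata. Oligodendrocyte lineage markers (8 genes) summed to 0 to 438 and 0.0351 to 281 CPM, against 39.8 to 74.1 CPM in somata. The part of these sources in the axonal values of the members was not tested. All 9 members together took 0.229 ± 0.0381% of counts in control somata and 0.283 ± 0.0217% in treated somata (SD, n = 6 each), against 0.159 ± 0.0427% in control axons (SD, n = 5) and 0.156 ± 0.0634% in treated axons (SD, n = 6).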

How the data were processed

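Counts of reads per Ensembl gene were deposited by the authors as whole numbers, 1 file for each of the 23 libraries. Per the labels' protocols, cDNA was made from polyadenylated RNA and amplified with a low-input kit with molecular identifiers. The submitters' processing notes name fastp 0.20.1, STAR 2.7.08a, HTSeq 0.13.5 and the build mm10. The annotation used, strand setting and use of the identifiers are not given in the sources used here. Rows of uncounted reads (14.2% to 24.4% of a library) were left out. Libraries held 16369153 to 43048953 counts, so 3 counts were 0.0697 to 0.183 CPM, which is counts per 1000000 of the library total.

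Each comparison was fitted on its own 2 groups in edgeR 4.0.16 (filterByExpr, TMM, quasi-likelihood F test, robust) in R 4.3.3, with p-values adjusted over all genes tested and a threshold of 0.05. The SE is the log2 fold change divided by the square root of F. Lengths, positions and overlaps came from GENCODE M21 and upstream sequences from RefSeq. Alternatives were limma 3.58.1 (voom, quality weights), DESeq2 1.42.0, other scalings, no filter, a replicate block, leaving out each library, length and GC offsets (mgcv 1.9.3) and the Eif2s3y split at 20 CPM. Scripts were tested on simulated data. All 9 members are named in every comparison. Of the 53 partners, those named are the 3 highest and 3 lowest called by log2 fold change, with further called genes in somata chosen after their values were seen; some partners are counted but not reported here by name. The members and lists were chosen with earlier results of these data known.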

Additional observations from a re-analysis of the deposited data

Results flagged for a closer look

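Of 33 pairs of member and group with 4 to 10 libraries, 4 held a library whose gap to the others exceeded the 95% limit of Dixon's test. With normally distributed values, chance alone exceeds it in about 1 of 20 groups. Axonal values that include zeros are not so distributed, so that rate does not hold for them. Ank2 stood at 940 CPM in control soma replicate 4, against 449 to 607 CPM in the other 5 control somata. Add1 stood at 383 CPM in control axon replicate 2, against 0 to 111 CPM in the other control axons. Add3 stood at 273 CPM in control axon replicate 3, against 0 to 71.2 CPM in the other control axons. Sptbn4 stood at 0.0441 CPM in control axon replicate 3, which is a single count, with 0 in the other control axons.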

How the results depend on the processing

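The 2 of 8 members called in treated against control somata (25.1% of all genes called) became 1 without a filter (9.22%), 1 with length and GC offsets (16.5%), 1 with the offsets and the replicate block together (13.1%), 4 with DESeq2 (31.0%) or limma voom (35.7%), 5 with the Eif2s3y split as covariate (33.9%), 4 in the high (29.2%) and 0 in the low Eif2s3y libraries (0%), and 5 without both libraries numbered 4 (36.1%). Leaving out 1 library gave 1 to 6 (16.8% to 38.3%). Counts for axons against somata include Sptbn4 and, without a filter, Ank1, whose calls follow from their soma counts. The 1 call in control axons (35.3%) became 2 without a filter (35.5%) and 6 with voom (67.3%); the 2 calls in treated axons (29.3%) became 1 with total counts (29.9%), 4 with DESeq2 (33.6%) and 6 with voom (70.5%), and 1 to 4 leaving out 1 library (28.7% to 43.3%). Sptan1 there lost its call with total counts, without a filter, with voom, with the block (adjusted p = 0.240) and without treated soma replicate 1, 5 or 6 (adjusted p 0.0506 to 0.0582 for the last 3). With the replicate block, 2, 0, 1 and 2 members passed in the 4 comparisons; in somata the block gave Ank3 (adjusted p = 0.0496) and lost Add2 (0.0542). In somata same-numbered libraries correlated at 0.00296 to 0.397, a mean of 0.226 against -0.0361 for other pairs, and 4 of 5 pairs were over 0.1; elsewhere they correlated at -0.0222 to 0.0892. Since not every pair was over 0.1, the numbers were not taken as pairs.

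Uncalled members changed sign. In somata, Add1 was -0.0613 with offsets, -0.0468 with offsets and the block, and -0.000908 to 0.0912 leaving out 1 library; Add3 was -0.12, -0.0537 and -0.0637 to 0.13. In treated against control axons, voom gave 1.32 for Sptan1, 0.86 for Ank2 and 1.69 for Add2, and the block 0.61 for Ank3 and 2.22 for Add2. Leaving out 1 library there gave -0.39 to 0.41 for Sptan1, -0.58 to 0.0081 for Sptbn1, -0.59 to 0.53 for Ank2, -1.13 to 0.52 for Ank3, -0.27 to 1.47 for Add1 and -1.08 to 0.91 for Add2. In control axons against somata, Sptan1 was 0.0800 with total counts and -0.72 to 0.13 leaving out 1 library; Sptbn1 was -0.0579 without a filter, -0.30 with voom and -0.15 to 0.36 leaving out 1 library. In treated axons against somata, Add3 was 0.16 with total counts. The cause of these changes was not tested.

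Counts of all genes called moved by over 1.5 times from 3929 in somata to 2580 with offsets, 2055 with offsets and the block, 6072 without control soma replicate 4 and 0 in the low Eif2s3y libraries. In control axons against somata 5196 became 10714 without a filter, 9912 with voom and 8151 without control axon replicate 5. In treated axons against somata 4234 became 10931 without a filter, 10203 with voom, 7687 with the block and 6499 without treated axon replicate 8. Thinning every library to the smallest total left the mean of 6.09 members per axonal library as it was.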
